A study of Mus musculus with 23 samples.

Results

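Ribosome biogenesis starts in the nucleolus, where RNA polymerase I transcribes the ribosomal RNA genes and small nucleolar ribonucleoproteins (snoRNPs) guide the modification and cutting of the transcript. Box C/D snoRNPs direct 2′-O-methylation, box H/ACA snoRNPs direct pseudouridylation, and separate sets of assembly factors then build the small and the large subunit. Mouse oocytes end growth with ribosomal RNA synthesis switched off, zygotes carry compact nucleolus precursor bodies, and working nucleoli are rebuilt after genome activation. The genes described here are 40 named factors of this machinery, chosen by gene symbol from the 22619 genes of the transcript records, and all 40 were found. They comprise 3 box C/D proteins, 4 box H/ACA proteins, 6 genes of nucleolar organisation and ribosomal DNA transcription, 4 genes of the processome subcomplex that couples transcription to processing, 10 other small-subunit factors and 13 large-subunit factors.

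RNA-seq was available for mouse embryos labelled B6D2F1 (C57BL/6xDBA/2), for which the study's methods give B6D2F1 oocyte donors and C57BL/6 sperm. The oocytes had been injected at the germinal vesicle (GV) stage with control siRNA (siCtrl) or with siRNAs against the transcription factor genes Etv5, Mlx or Rfx1, matured in vitro and fertilised. Embryos were taken at the late zygote stage, labelled 14 h after fertilization, and at the late 2-cell stage, labelled 36 h, for which the study's methods give later hours. Each of the 8 groups (siCtrl, siEtv5, siMlx and siRfx1 at both stages) has 3 libraries, except siEtv5 2-cell embryos with 2. The study asked whether Mlx and Rfx1 are needed for zygotic genome activation (ZGA) and used siEtv5 as a further control. All groups share the injection and the in vitro maturation, each target was silenced by a mix of siRNAs, and the study's methods state that the sequencing experiments were repeated for each group. The sources used here do not say from which embryo collection each library came, so the p-values reflect how far the libraries of a group differ, which may be technical.

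Levels are the deposited FPKM (fragments per kilobase of transcript, scaled to the fragments mapped in the library), summed over the transcripts of a gene. Aligned bases were 404 to 991 Mb per library in 7 groups, but 119 to 174 Mb in the siRfx1 2-cell group. Of the siRNA targets, Etv5 and Rfx1 were lower than in every siCtrl library of the same stage in all libraries labelled for their knockdown (KD). Low levels also occurred in other groups. In siMlx, Rfx1 was at 1.29, 0.864 and 1.33 FPKM in zygotes and at 2.88, 2.82 and 1.85 FPKM in 2-cell embryos. In siCtrl it was at 3.05 to 3.52 and 8.12 to 10.7 FPKM. In siRfx1 2-cell embryos Etv5 was at 9.19, 6.73 and 12.6 FPKM, beside 8.98 and 5.55 in siEtv5 and 43.7 to 49.35 in siCtrl. Rfx1 in siEtv5 zygotes spanned the controls (7.175, 2.09 and 5.48 FPKM). In siEtv5 2-cell embryos Rfx1 was at 4.39 and 4.94 FPKM, below every siCtrl library of that stage. Mlx in siRfx1 2-cell embryos was at 21.5, 0 and 0 FPKM. Mlx was at 0.469, 0 and 0.442 FPKM in siMlx zygotes against 1.84, 3.63 and 4.25 in siCtrl zygotes. In 2-cell embryos Mlx was at 0.836, 2.26 and 4.05 FPKM in the libraries labelled siMlx against 2.43, 4.42 and 3.74 in siCtrl, so these groups overlapped and the label of siMlx 2-cell library 3 was not borne out by its target. Summed FPKM of 12 oocyte and zygote markers was 2924 to 5811 in the zygote libraries and 160 to 916 in the 2-cell libraries. Summed FPKM of 12 cumulus and granulosa cell markers was 6.00 to 8.98 in siCtrl zygotes and 47.0 to 79.1 in siCtrl 2-cell embryos, where Amhr2 was at 28.3, 66.1 and 38.45 FPKM and Tnfaip6 at 15.7, 9.72 and 11.5 FPKM, against at most 0.357 and 0.309 FPKM in the zygotes. Ptx3, Foxl2, Inhba and Col1a2 were at 0 in all 6 siCtrl libraries, and the part of these markers in the stage difference was not tested.

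The 40 genes took 0.283 to 0.318% of all FPKM in siCtrl zygotes and 0.927 to 0.992% in siCtrl 2-cell embryos. The same separation was present in each siRNA group, with at most 0.271% in any KD zygote library and at least 0.824% in any KD 2-cell library. Npm1 alone, which encodes the histone chaperone nucleophosmin, held 43.7 to 47.9% of the genes' summed FPKM in siCtrl zygotes and 11.6 to 14.5% in siCtrl 2-cell embryos. Among siCtrl zygotes 18 of the 40 had a mean of at least 10 FPKM and 1 had at least 100, while at the 2-cell stage these numbers were 36 and 10. In bulk embryo samples, fewer cells and less RNA per cell cannot be told apart, and each level is relative to the other transcripts of the library.

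**Figure D1:**
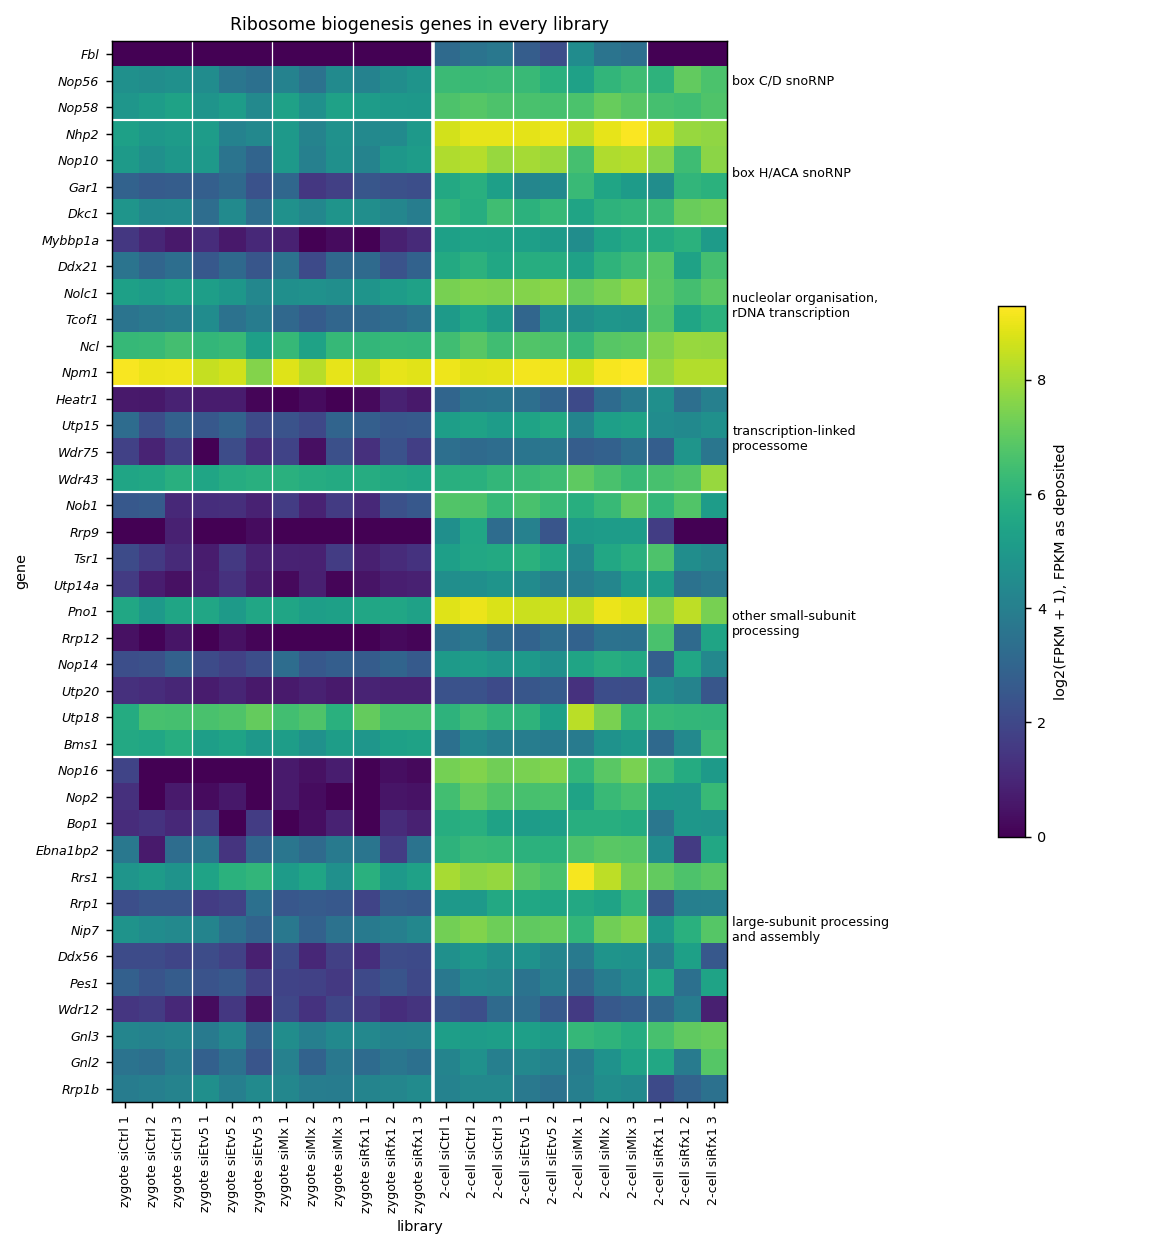
Level of each of the 40 genes (rows, grouped by role) in each of the 23 libraries (columns, grouped by stage and siRNA), as the colour of log2(FPKM + 1). The thick white line parts the 12 zygote libraries from the 11 2-cell libraries; Fbl was at 0 in all zygote libraries, and Npm1 was bright throughout.

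In siCtrl embryos, 31 of the 40 genes were higher at the 2-cell stage than at the zygote stage and 1 (Bms1) was lower, by limma, where a gene was called if its adjusted p was below 0.05 and its level differed by more than 2-fold. Over all 11123 genes tested, 37.0% were higher and 26.9% lower by the same rule. The members' median log2 fold change was 2.39, against 0.27 over all genes tested. In 33 members every 2-cell library was above every zygote library and in 2 every library was below, where all genes gave 42.0% and 33.2%. Of the 31 members that rose, 23 rose by more than 4-fold and 12 by more than 8-fold. The shares over all genes at these folds were not counted. Fbl, Heatr1, Rrp9, Rrp12, Nop2 and Nop16 had a zygote mean under 1 FPKM. They therefore entered the test through their 2-cell level and could only rise. Of the other 34 members 25 rose, for which no matching share over all genes was counted. Log2 fold changes are on the log2(FPKM + 1) scale after the libraries were brought to a common median ratio, which understates the change of genes near 0.

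All box C/D and H/ACA proteins rose, Fbl from libraries in which it is listed at 0 and Dkc1 with most of its 2-cell coverage on a single exon. Of the nucleolar and ribosomal DNA transcription genes 4 of 6 rose, of the transcription-linked processome 3 of 4, of the other small-subunit factors 7 of 10 with Bms1 lower, and of the large-subunit factors 10 of 13. The role medians ran from 1.44 (box C/D) to 3.12 (other small-subunit factors) on the log2 scale. Across the 40 genes the log2 fold change went down with the zygote level (Spearman's rho -0.60, n = 40 genes) and with transcript length (rho -0.35); these points share libraries, and the zygote level is part of the fold change.

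**Figure D2:**
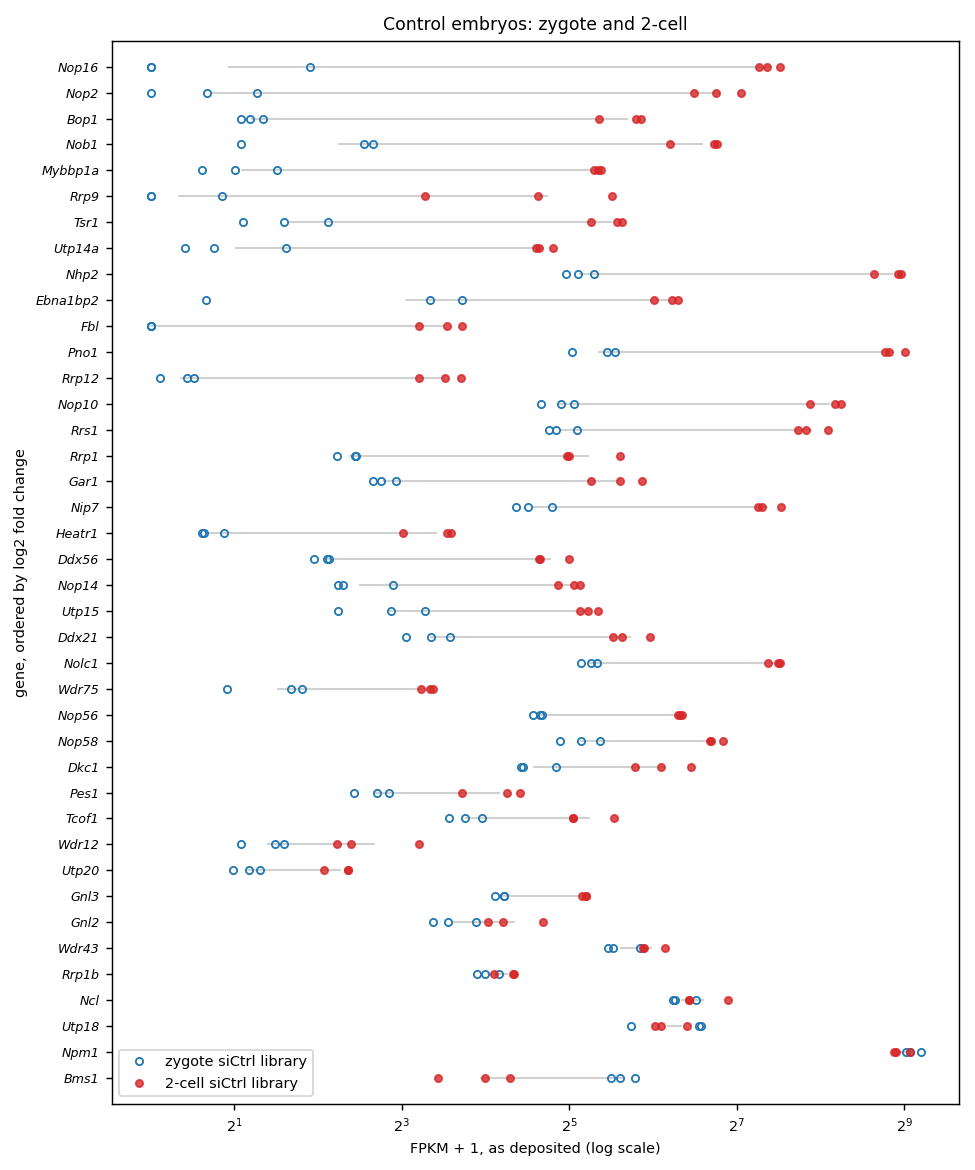
FPKM + 1 (log scale) of each gene in the 3 zygote siCtrl libraries (open blue) and the 3 2-cell siCtrl libraries (filled red), with a grey line between the means and genes ordered by log2 fold change. Red points lie to the right of all blue points in 33 of 40 genes once the libraries are rescaled, and to the left for Bms1.

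The 3 largest rises were in the large-subunit factors Nop16, Nop2 and Bop1. Nop16 (chr13:54685552-54691435, mm9, as for all gene positions here), needed for early large-subunit particles, was at 2.75, 0 and 0 FPKM in the siCtrl zygote libraries and at 163, 183 and 153 FPKM in the 2-cell libraries. It was thus at 0 in zygote libraries 2 and 3, low in library 1, and among the higher members in every 2-cell library. The log2 fold change was 6.60 ± 0.51 (SE; n = 3 and 3; adjusted p = 1.75e-05 in limma). Nop2 (chr6:125081901-125094771), a cytosine methyltransferase of the large ribosomal RNA, was at 1.42, 0 and 0.595 FPKM and then at 88.7, 132 and 107 FPKM. Its groups were far apart, with a log2 fold change of 5.95 ± 0.36 (adjusted p = 6.7e-06). Bop1 (chr15:76283426-76307699) acts with Pes1 and Wdr12 in the PeBoW complex of large-subunit processing and went from 1.27, 1.54 and 1.11 FPKM to 54.7, 57.0 and 40.01 FPKM. This complex did not move evenly: the log2 fold change was 4.27 ± 0.24 for Bop1, 1.24 ± 0.26 for Pes1 and 1.04 ± 0.33 for Wdr12, and all 3 genes were called higher. Ebna1bp2 (chr4:118293404-118300381), another large-subunit assembly factor, was at 12.2, 0.578 and 9.10 FPKM in zygotes and at 63.4, 77.7 and 73.6 FPKM in 2-cell embryos. Its zygote libraries spread widely, with library 2 lowest, yet none reached the 2-cell range (log2 fold change 3.39 ± 0.73, adjusted p = 0.00348). Ebna1bp2 shares 603 exon bases with D4Ertd617e on the same strand, so its level is uncertain.

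Small-subunit factors followed closely. Nob1 (chr8:109936389-109948938), the nuclease that makes the last cut of 18S ribosomal RNA, was at 4.86, 5.30 and 1.12 FPKM in zygotes and at 107, 105 and 72.9 FPKM in 2-cell embryos (log2 fold change 4.24 ± 0.44, adjusted p = 6.84e-05). Pno1, which binds the same cleavage region, started higher at 45.6, 31.8 and 42.8 FPKM and reached 452, 512 and 435 FPKM. Both genes of this late step rose, Pno1 by 3.27 ± 0.17 on the log2 scale. Rrp9 (chr9:106379640-106387746), a protein of the U3 snoRNP, was at 0, 0 and 0.813 FPKM and then at 23.8, 44.5 and 8.70 FPKM. The 2-cell libraries of Rrp9 differed among themselves more than those of most members but all lay above the zygote libraries (log2 fold change 4.05 ± 0.56, adjusted p = 0.000353). Tsr1 (chr11:74711582-74722842), a late small-subunit maturation factor, went from 3.35, 2.01 and 1.15 FPKM to 37.2, 46.7 and 48.5 FPKM, and Utp14a (chrX:45610111-45635626), of the small-subunit processome, from 2.07, 0.693 and 0.334 FPKM to 23.2, 24.01 and 27.0 FPKM. Neither gene's groups came close, with log2 fold changes of 3.67 ± 0.30 and 3.57 ± 0.34. Tsr1 shares 1159 exon bases with Srr on the opposite strand, mostly in its last exon, which held 61.1 to 77.6% of its coverage in siCtrl 2-cell embryos; without the exon of most coverage its log2 fold change was 2.74.

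Bms1 (chr6:118333399-118369435), a GTPase of the same processome, went the other way, from 47.9, 44.0 and 54.2 FPKM in zygotes to 9.76, 18.5 and 14.9 FPKM in 2-cell embryos. Every 2-cell library was below every zygote library, and Bms1 fell by 1.97 ± 0.25 on the log2 scale (adjusted p = 0.000219). Utp18 and Utp20 of the processome did not pass the rule, at log2 fold changes of -0.36 and 0.94. A set of members thus already had a high FPKM in zygotes: Utp18 at 52.2, 94.0 and 92.3 FPKM, Bms1, Wdr43, Ncl and Npm1. Utp18 had 93.8 to 95.0% of its coverage on its best covered exon in siCtrl zygotes, with 2 to 3 of 14 exons covered. In siCtrl 2-cell embryos that share was 81.5 to 88.9%, with 7 to 8 exons covered. Its level and its log2 fold change therefore rest mostly on a single exon.

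Among the snoRNP proteins, Nhp2 (chr11:51433275-51437216), which binds the guide RNA of H/ACA particles, was at 38.4, 30.2 and 33.4 FPKM in zygotes and at 398, 498 and 487 FPKM in 2-cell embryos (log2 fold change 3.47 ± 0.16, adjusted p = 3.85e-06). It was one of the 10 members with a mean of at least 100 FPKM at the 2-cell stage. Its partners rose by 2.97 ± 0.18 (Nop10), 2.57 ± 0.23 (Gar1) and 1.29 ± 0.22 (Dkc1, the pseudouridine synthase itself). Dkc1 thus had the smallest log2 fold change of the H/ACA proteins, from 27.7, 20.4 and 20.7 FPKM in zygotes to 67.2, 54.1 and 86.5 FPKM in 2-cell embryos. The best covered exon of Dkc1 held 41.6 to 48.0% of its coverage in siCtrl zygotes and 91.5 to 93.6% in siCtrl 2-cell embryos. Its 2-cell level, and so its rise, therefore rests mostly on a single exon. In the box C/D particle, Fbl (fibrillarin, the methyltransferase; chr7:28954767-28964288) was listed at 0 in all 3 siCtrl zygote libraries and at 8.23, 10.6 and 12.1 FPKM in the 2-cell libraries, so no fold is given. It was listed at 0 in the other 9 zygote libraries as well. The paralogous scaffold proteins of this particle behaved alike: Nop56 went from 24.2, 22.7 and 24.5 FPKM to 79.3, 77.4 and 80.1 FPKM, and Nop58 from 28.7, 34.2 and 40.4 FPKM to 102, 113 and 102 FPKM. Both pairs of groups were apart, with log2 fold changes of 1.44 ± 0.15 and 1.35 ± 0.18; the figure for Nop56 was 0.93 without its exon of most coverage, below the 2-fold rule. At the 2-cell stage Fbl was below its scaffold partners in FPKM, a measure per length, in every siCtrl library. A listed 0 can be a failed estimate. Taf1a and Pih1d1, which encode factors of RNA polymerase I transcription and snoRNP assembly, are also listed at 0 in every zygote library. Unlike Fbl, Taf1a is at 0 in every 2-cell library too, and Pih1d1 was at 0.303, 0 and 1.36 FPKM in siCtrl 2-cell embryos. These genes therefore cannot show whether the zygote value of Fbl is a failed estimate.

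The abundant nucleolar proteins Npm1 and Ncl were not called. Npm1 (chr11:33052511-33063056) was the highest member in siCtrl zygotes at 587, 519 and 537 FPKM and stayed at 538, 468 and 478 FPKM in 2-cell embryos. After rescaling, its 2-cell libraries lay below its zygote libraries (log2 fold change -0.40 ± 0.12, adjusted p = 0.0141), which is under the 2-fold rule. Ncl (nucleolin, chr1:88241294-88256030) was at 74.6, 75.6 and 90.5 FPKM and then at 85.0, 118 and 85.0 FPKM, with overlapping groups and a log2 fold change of -0.01 ± 0.19. Mybbp1a (chr11:72254880-72265052), a nucleolar Myb-binding protein, was by contrast at 1.84, 1.02 and 0.537 FPKM in zygotes and at 38.2, 40.8 and 39.6 FPKM in 2-cell embryos, a log2 fold change of 4.11 ± 0.28 (adjusted p = 9.58e-06). The other genes of this role that rose were Ddx21 (an RNA helicase, 2.14), Nolc1 (a chaperone of snoRNPs, 1.96) and Tcof1 (treacle, which supports RNA polymerase I, 1.21).

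Paralogs did not always move together. Rrp1, a large-subunit factor, went from 3.69, 4.48 and 4.43 FPKM to 30.5, 30.9 and 47.7 FPKM, and its paralog Rrp1b from 13.9, 14.9 and 17.0 FPKM to 16.2, 19.3 and 19.1 FPKM. The lower paralog of the zygote was thus the higher of them in 2-cell embryos. Rrp1 rose by 2.59 ± 0.24 on the log2 scale, while Rrp1b was at -0.01 ± 0.20, a value whose sign changed in 6 of the alternatives run. Gnl3 (nucleostemin, chr14:31825619-31832275) and Gnl2 are nucleolar GTPases of large-subunit export. Gnl3 was at 17.6, 16.4 and 17.7 FPKM and then at 35.8, 34.6 and 35.9 FPKM, and Gnl2 at 10.7, 9.39 and 13.8 FPKM and then at 17.5, 24.8 and 15.3 FPKM. Neither passed the 2-fold rule (log2 fold changes 0.75 ± 0.17 and 0.46 ± 0.26, adjusted p = 0.00418 and 0.14), although the Gnl3 groups were apart. The best covered exon of Gnl3 held 90.1 to 93.1% of its coverage in siCtrl zygotes, with 6 to 8 of 15 exons covered. In siCtrl 2-cell embryos it held 55.5 to 71.4%, with 13 to 14 exons covered. The size of the Gnl3 difference therefore rests largely on a single exon.

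Coverage of these genes was uneven along the transcript. In siCtrl zygotes the median member with several exons had 67.7% of its bases on its best covered exon and coverage on 18.6% of its exons, and in siCtrl 2-cell embryos these values were 61.3% and 57.8%. The best covered exon was the last of the transcript in 14 of 38 members in zygotes and in 27 of 39 in 2-cell embryos. Npm1 had at least 97.3% of its coverage on 2 of 11 exons in every siCtrl library, and Nob1 at least 92.2% on its last exon. Ncl is annotated with 8257 transcript bases and had at least 83.4% of its siCtrl coverage on 2 of 14 exons, so its FPKM rests on a small part of the transcript. An alternative chosen after seeing the data left out the exon of most coverage in each transcript with more than 2 exons. By it, 28 members rose and 2 fell of 39 tested, where all genes gave 2981 higher and 2167 lower of 8532. The part of coverage in the stage difference was otherwise not tested.

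**Figure D3:**
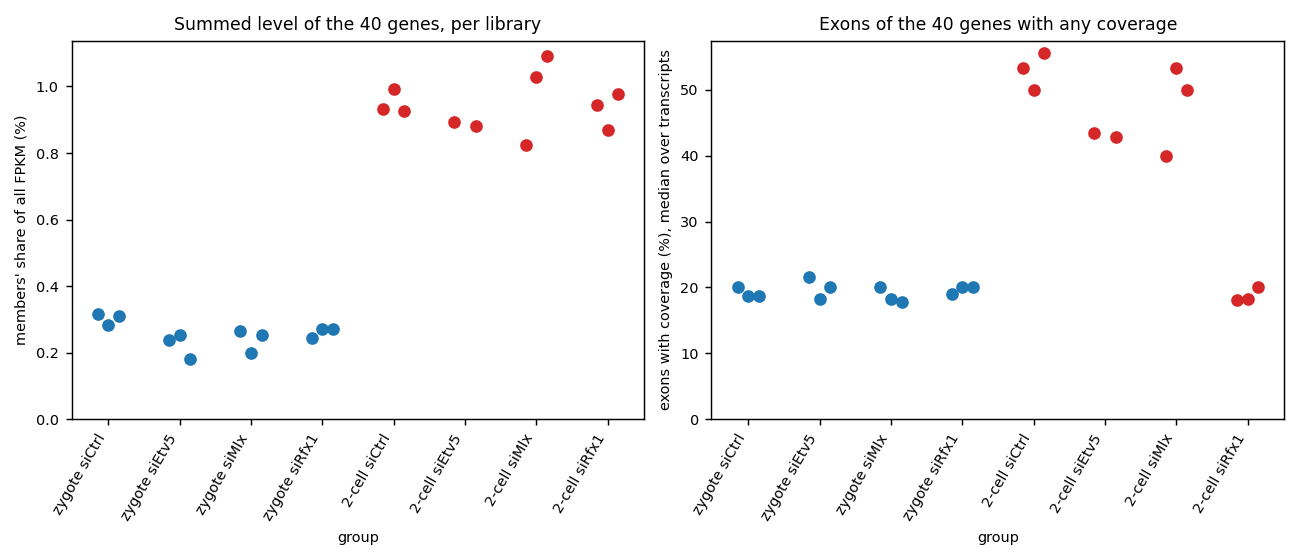
Left, the share of all FPKM held by the 40 genes in each library (percent); right, the median share of exons with any coverage over their transcripts with several exons and a level above 0 (percent), both by group, zygote in blue and 2-cell in red. The siRfx1 2-cell libraries sit with the other 2-cell libraries on the left (0.870 to 0.978%) and with the zygote libraries on the right (18.1 to 20%).

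Promoter sequence was looked at because so many members rose together and because MLX binds E-boxes, ETV5 binds ETS sites and RFX1 binds X-boxes. RefSeq promoters (GRCm38.p6, 250 bases before to 50 after the gene start) were matched by symbol for 33 of the 40 members. On either strand, the E-box CACGTG was in 8 of 33 (24.2%), against 8.09% of 27025 genes in the table and 12.0% of 8251 genes that averaged 1 FPKM or more over the siCtrl libraries. The ETS core CCGGAAG was in 10 of 33 (30.3%), against 9.93% of all genes and 20.4% of the expressed genes. GTTGCC, part of the X-box, was in 4 of 33 (12.1%; 14.1% and 15%), and the longer gapped X-box consensus, which can overlap GTTGCC, in 0 of 33 (2.49% and 3.04%). These counts are descriptions with no test. Nop2, Tsr1 and Utp18 held both the E-box and the ETS core. Printed here are the 250 bases before the start of 4 members. Nop16 and Nop2 had the largest rise, Nhp2 had the largest log2 fold change of the box H/ACA genes, and Bms1 fell. Capitals mark the E-box, which begins 60 bases before the start of Nop2, and the ETS core on either strand, beginning 38 bases (Nop2), 23 bases (Nhp2) and 108 bases (Bms1) before the start; the Nop16 stretch holds none of the 4 motifs.
Nop16 (GRCm38.p6 chr13:54590075-54590324, minus strand): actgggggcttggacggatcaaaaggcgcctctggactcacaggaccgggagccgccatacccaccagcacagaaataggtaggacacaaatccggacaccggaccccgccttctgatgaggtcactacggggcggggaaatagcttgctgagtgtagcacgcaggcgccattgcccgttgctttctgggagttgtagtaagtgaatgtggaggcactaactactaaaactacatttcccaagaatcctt
Nop2 (GRCm38.p6 chr6:125131633-125131882, plus strand): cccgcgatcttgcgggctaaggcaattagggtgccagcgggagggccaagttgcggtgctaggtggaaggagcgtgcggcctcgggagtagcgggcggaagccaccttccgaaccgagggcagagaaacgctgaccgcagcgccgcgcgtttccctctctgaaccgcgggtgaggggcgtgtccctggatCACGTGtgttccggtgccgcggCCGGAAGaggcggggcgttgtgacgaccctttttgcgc
Nhp2 (GRCm38.p6 chr11:51619523-51619772, plus strand): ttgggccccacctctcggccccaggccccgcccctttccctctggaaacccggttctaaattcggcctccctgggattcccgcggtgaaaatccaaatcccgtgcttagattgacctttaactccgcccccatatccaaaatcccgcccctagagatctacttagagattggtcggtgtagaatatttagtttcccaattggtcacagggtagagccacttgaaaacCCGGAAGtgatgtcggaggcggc
Bms1 (GRCm38.p6 chr6:118419418-118419667, minus strand): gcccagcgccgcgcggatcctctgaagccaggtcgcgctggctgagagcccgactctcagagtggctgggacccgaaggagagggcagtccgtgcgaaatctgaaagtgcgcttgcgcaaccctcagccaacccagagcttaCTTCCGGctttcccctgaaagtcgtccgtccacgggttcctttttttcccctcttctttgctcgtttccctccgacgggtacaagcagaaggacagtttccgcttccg

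The other genes of the pathway were tested in the same way. Of 120 listed genes 118 were found and 115 tested in siCtrl embryos. From the zygote to the 2-cell stage 85 rose and 8 fell, with a median log2 fold change of 2.24 (all genes, 37.0% higher and 26.9% lower). Genes with a zygote mean under 1 FPKM entered the test through their 2-cell level and could only rise. Utp23 (2.24, 0.204 and 0 FPKM in siCtrl zygotes) and Wdr18 (0.740, 0 and 0.602 FPKM) are examples. Such genes were not counted apart. RNA polymerase I and its factors had 13 of 14 higher, among them the subunit genes Polr1c (4.36 ± 0.43) and Polr1b (4.01 ± 0.23), while Ubtf, the upstream binding factor of ribosomal DNA, was at 0.75 ± 0.34 and was not called. Utp23 (5.97) and Nol11 (4.29) had the largest log2 fold changes of the other small-subunit factors, and Riok1, a kinase of late maturation, fell by 4.3. Of the other large-subunit factors Wdr18 (4.64) and Ddx54 (3.92) rose most, and Sbds fell by 1.72 and Rsl1d1 by 1.13. Znhit3 (6.30) and Ruvbl1 (3.43) led the snoRNP assembly factors. In the nuclear exosome, C1d (5.56) and Exosc5 (3.93) rose most and Mphosph6 fell by 1.88.

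Myc, a transcription factor known to drive ribosome biogenesis genes, was at 0, 0 and 0.304 FPKM in siCtrl zygotes and at 35.6, 14.5 and 16.8 FPKM in 2-cell embryos (log2 fold change 4.17 ± 0.37). Mycn was listed at 0 in the 3 zygote libraries and was at 8.08, 19.4 and 2.79 FPKM in the 2-cell libraries. Myc and Mycn entered the test through their 2-cell level and could only rise. Npm2, the nucleoplasmin of the oocyte, was at 118, 72.3 and 104 FPKM in zygotes and at 2.48, 1.3 and 0.881 FPKM in 2-cell embryos. It fell by 5.50 ± 0.29 on the log2 scale, in contrast to its paralog Npm1 above. Npm3 fell by 2.16 ± 0.57, from 6.70, 5.62 and 5.23 FPKM in zygotes to 3.75, 0 and 0 FPKM in 2-cell embryos. The size of the Npm3 fall rests on the libraries listed at 0 and depends on the pseudocount. Cytosolic ribosomal protein genes rose in 79 of 83 tested (median 4.02), whereas mitochondrial ribosomal protein genes rose in 34 and fell in 16 of 74 (median 0.84).

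The same stage comparison within each KD group uses its own libraries. From zygote to 2-cell embryos, 31 members rose and 2 fell in siEtv5 (all genes, 37.9% higher and 23.0% lower), 29 rose and 0 fell in siMlx (35.4% and 29.2%), and 28 rose and 1 fell of 38 tested in siRfx1 (18.7% and 29.7%). Fbl and Rrp9 were under the filter in siRfx1. Members with a zygote mean under 1 FPKM were tested through their 2-cell level and could only rise: 10 in siEtv5, 10 in siMlx and 8 in siRfx1. Of the 30 other members tested in each group, 21, 20 and 20 rose, for which no matching share over all genes was counted. The medians were 2.51, 2.58 and 2.01 on the log2 scale, beside 0.40, 0.20 and -0.24 over all genes. In siRfx1 the members that rose therefore stood against a smaller share of risen genes than in the other groups. In the siMlx group Bms1 was at -0.87 ± 0.31 (adjusted p = 0.0334), short of a 2-fold difference. Every 2-cell library was above every zygote library for 36 of 40 members in siEtv5 (all genes, 45.7%), 32 of 40 in siMlx (38.2%) and 29 of 38 in siRfx1 (24.2%). At an unadjusted p under 0.05 there were 35, 33 and 32 members (67.2%, 70.8% and 55.1%). Leaving out siEtv5 2-cell library 1, which leaves 1 library in that group, cut the siEtv5 count of called members from 33 to 18, while the genes called higher over the whole table went from 4137 to 2657.

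Across the 4 groups, 20 members rose in all, 10 in 3, 3 in 2, 3 in 1 and 4 in none. Of the 12077 genes tested in at least 1 group, 12.6% rose in 4 groups, 11.6% in 3, 8.79% in 2, 11.9% in 1 and 55.2% in none. Nop16 had the largest log2 fold change in siCtrl, siMlx (5.97) and siRfx1 (5.38), with Nop2 next, while in siEtv5 it was listed at 0 in all 3 zygote libraries, so no fold is given. Nop2 ran from 4.89 to 6.14 over the 4 groups. In siEtv5 the next was Nob1 (5.12 ± 0.29), in siMlx Bop1 (5.14 ± 0.35) and in siRfx1 Rrp12 (4.85 ± 0.87), a factor of subunit export at 0, 0.177 and 0.0912 FPKM in zygotes and at 98.3, 8.35 and 41.7 FPKM in 2-cell embryos. The siRfx1 values of Rrp12 thus spread more than 10-fold among 2-cell libraries, all above the zygotes. Npm1, Utp18, Bms1 and Rrp1b rose in no group. Bms1 fell in siCtrl and siEtv5 (-1.56 ± 0.28), Utp18 in siEtv5 (-1.43 ± 0.37) and Rrp1b in siRfx1 (-1.70 ± 0.43). Without the exon of most coverage Utp18 in siEtv5 was at 0.47.

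**Figure D4:**
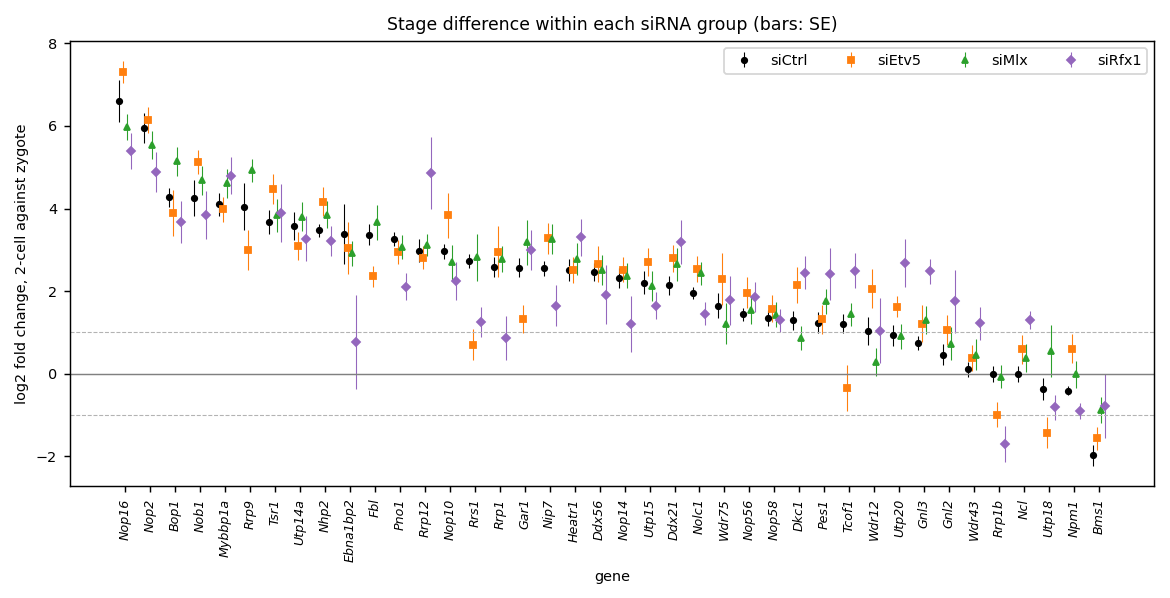
Log2 fold change (bars, SE) from zygote to 2-cell embryos for each gene, within siCtrl (black circles), siEtv5 (orange squares), siMlx (green triangles) and siRfx1 (purple diamonds), with dashed lines at a 2-fold difference. Bms1 is below 0 in all groups, and values over zygote libraries at 0 (Fbl, Nop16 in siEtv5, Rrp9 and Rrp12 in siMlx) depend on the pseudocount; Rrs1 in siEtv5 and Rrp1 in siRfx1 stand below the other groups.

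In zygotes, no KD changed a member at the adjusted level. Of the members tested, limma called 0 of 32 in siEtv5 against siCtrl (all genes, 0% higher and 0% lower), 0 of 30 in siMlx (1.13% and 1.02%) and 0 of 31 in siRfx1 (0.0444% and 0.0111%). At an unadjusted p under 0.05 there were 3, 6 and 2 members, where all genes gave 12.4%, 24.7% and 14.6%. Members with every KD library above every control numbered 2, 7 and 2 (all genes, 9.08%, 14.5% and 9.78%), and those with every KD library below numbered 3, 5 and 3 (9.65%, 17.3% and 12%). Median log2 fold changes of the members were -0.27, 0.00 and 0.02, next to -0.01, 0.03 and 0.00 over all genes. The members with the lowest p were large-subunit factors in each group. Rrs1, which helps to bring the 5S particle into the large subunit, was at 40.5, 60.5 and 68.1 FPKM in siEtv5 and at 59.3, 30.9 and 38.5 FPKM in siRfx1, against 27.7, 33.03 and 26.04 FPKM in siCtrl. The siEtv5 libraries all lay above siCtrl and the siRfx1 libraries overlapped it (log2 fold changes 1.09 ± 0.31 and 0.67 ± 0.28, adjusted p = 0.33 and 0.324). Nip7, a pre-ribosomal RNA processing factor, was at 17.2, 9.73 and 6.75 FPKM in siEtv5 and at 12.1, 6.48 and 10.4 FPKM in siMlx, against 26.6, 21.8 and 19.5 FPKM in siCtrl. Every library of either KD was below every siCtrl library, at log2 fold changes of -0.87 ± 0.30 and -0.85 ± 0.23 (adjusted p = 0.365 and 0.0781). These comparisons share the siCtrl libraries. Pes1 in siMlx was at 2.69, 2.44 and 1.93 FPKM against 6.22, 4.39 and 5.52 FPKM (-0.65 ± 0.22, adjusted p = 0.128), and Rrp1b in siRfx1 at 17.3, 18.3 and 21.4 FPKM against 13.9, 14.9 and 17.0 FPKM (0.46 ± 0.17, adjusted p = 0.283); without its exon of most coverage Rrp1b was at -0.070.

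In 2-cell embryos, siEtv5 and siMlx changed 0 of 40 members each, by limma. Over all genes, 0.0985% were higher and 0.152% lower in siEtv5, and 0% and 0.00945% in siMlx. Without siMlx library 3, whose Mlx level was within the control range, 1 member was called higher, and over all 10575 genes tested 204 were higher and 166 lower. At an unadjusted p under 0.05 there were 5 members in siEtv5 and 7 in siMlx (all genes, 15.5% and 18.7%). In siEtv5 6 members lay wholly above and 13 wholly below the controls (19.0% and 16.7%), and in siMlx 11 above and 0 below (10.9% and 15%). Members' medians were -0.14 in siEtv5 and 0.20 in siMlx, beside 0.04 and -0.05 over all genes, and the siMlx median was -0.05 with FPKM as deposited, where all genes moved to -0.27. Rrs1 had the lowest p in siEtv5, at 120 and 98.4 FPKM against 271, 211 and 226 FPKM in siCtrl. Both KD libraries were below all controls (log2 fold change -1.09 ± 0.18, adjusted p = 0.0725). Gar1 was likewise at 18.4 and 20.5 FPKM against 47.9, 57.5 and 37.3 FPKM (-1.22 ± 0.25, adjusted p = 0.0996). In siMlx the lowest p were those of Ebna1bp2, at 104, 121 and 113 FPKM against 63.4, 77.7 and 73.6 FPKM, and Gnl3, at 72.4, 65.4 and 53.1 FPKM against 35.8, 34.6 and 35.9 FPKM. All siMlx libraries were above the controls for these genes, at log2 fold changes of 0.90 ± 0.27 and 1.07 ± 0.32 (adjusted p = 0.158 and 0.159); without its exon of most coverage Ebna1bp2 was at -0.15. The siMlx 2-cell libraries differed among themselves: library 1 was the lowest of the 3 in 32 of the 40 members and had the fewest aligned bases of the group. Summed FPKM of the 2-cell markers found was 276 to 804 in siMlx, 2295 to 2619 in siEtv5 and 1075 to 1473 in siCtrl. That of the oocyte and zygote markers was 160 to 299 in siMlx, 602 to 606 in siEtv5 and 397 to 459 in siCtrl. Both marker sums were thus lower in siMlx and higher in siEtv5 than in siCtrl. The part of stage in these comparisons was not tested.

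In siRfx1 2-cell embryos, Gnl3 and Ncl were higher and Fbl was lower than in siCtrl, of 40 members tested; over all genes 2.13% (219 genes) were higher and 1.45% (149 genes) lower. The split over all genes depended on the scaling, with 148 higher and 1183 lower for FPKM as deposited, and 190 higher and 839 lower without the exon of most coverage. At an unadjusted p under 0.05 there were 15 members (all genes, 23.2%), and 14 members lay wholly above and 4 wholly below the controls (10.4% and 20.7%). Gnl3 was at 95.7, 129 and 138 FPKM against 35.8, 34.6 and 35.9 FPKM, the KD libraries far above the controls (log2 fold change 2.42 ± 0.32, adjusted p = 0.0144). Ncl was at 184, 228 and 226 FPKM against 85.0, 118 and 85.0 FPKM, again with no overlap (1.85 ± 0.27, adjusted p = 0.0193). Fbl was listed at 0 in the 3 siRfx1 libraries and at 8.23, 10.6 and 12.1 FPKM in siCtrl, so no fold is given (adjusted p = 0.0305). It entered this test through its siCtrl level alone and could only be lower. Rrp9, at 2.23, 0 and 0 FPKM against 23.8, 44.5 and 8.70 FPKM, had groups apart but was not called.

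When any siCtrl 2-cell library was left out, none of the 3 members was called (adjusted p of 0.101 to 0.13), and at most 5 genes were called over the whole table. The log2 fold changes then were 2.39 to 2.42 for Gnl3 and 1.76 to 1.99 for Ncl, near the values with all libraries. Leaving out siRfx1 2-cell library 1 gave 7 called members, where all genes gave 413 higher and 288 lower. Leaving out its library 2 gave 6, where all genes gave 308 and 241. Members spread more in this group than in others, with a median coefficient of variation of 48.1% against 13.7% in siCtrl 2-cell embryos, its depth was lowest, and the median share of exons with coverage was 18.1 to 20% per library against 50 to 55.6%. The log2 fold change of the members went up with transcript length (Spearman's rho 0.44, n = 40 genes of the same libraries). Their median was 0.26 after rescaling, beside -0.25 over all genes, and -0.42 with FPKM as deposited, where all genes were at -0.85; the direction of the median thus depended on the scaling, and with FPKM as deposited 2 members were higher and 4 lower. Summed FPKM of the 2-cell markers was 629 to 858 against 1075 to 1473 in siCtrl, and that of the oocyte and zygote markers 746 to 916 against 397 to 459. Depth, exon coverage and the stage markers moved with the group, and their part in the result was not tested.

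**Figure D5:**
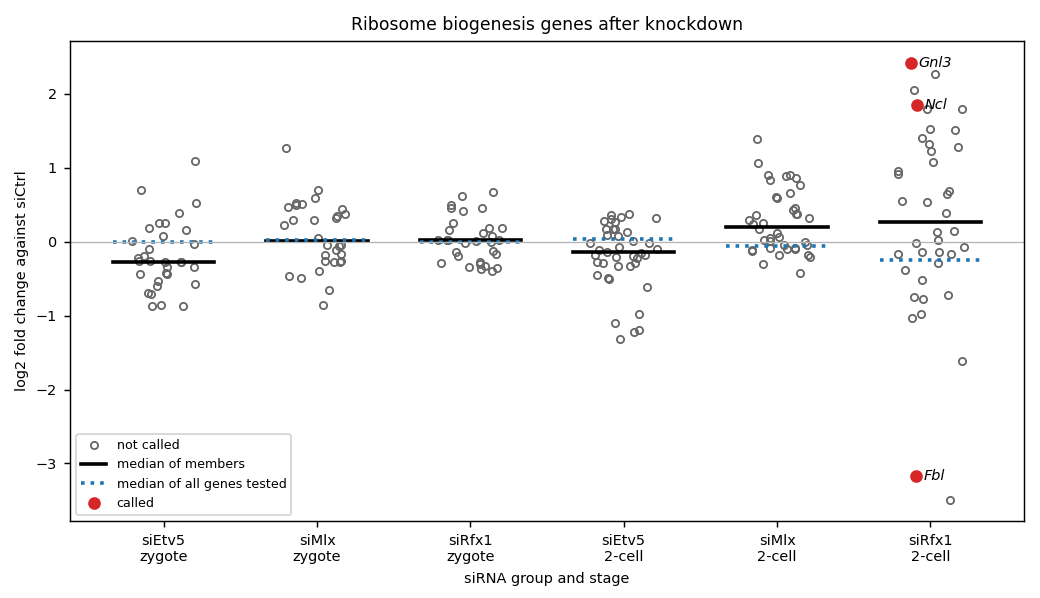
Log2 fold change of each tested gene against siCtrl of the same stage (points; filled red, called), with the median of the members (black line) and of all genes tested (dotted blue), for the 6 KD comparisons. Only the siRfx1 2-cell comparison holds called members, Gnl3, Ncl and Fbl, and the 3 comparisons of a stage share the siCtrl libraries.

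The KD effect at the 2-cell stage was set against the effect of the same siRNA in zygotes as a difference of log2 fold changes. In siEtv5 only Rrs1 was called by limma, with 0 members higher and 1 lower (all genes, 0.0991% and 0.216%): its effect was 2.21 lower in 2-cell embryos than in zygotes (-2.21 ± 0.40, adjusted p = 0.0444). In siMlx 0 of 40 members were called (0.194% and 0.980%) and 2 had an unadjusted p under 0.05 (all genes, 16.1%), Bms1 at 1.08 ± 0.40 and Bop1 at 1.06 ± 0.44. In siRfx1 2 members were higher and 2 lower (3.02% and 6.93%). Gnl3 (1.99 ± 0.35, adjusted p = 0.00616) and Ncl (1.58 ± 0.30, adjusted p = 0.0103) had the higher 2-cell effect. Rrp9 and Fbl made up the lower calls (adjusted p = 0.038 and 0.00139). Both are at or near 0 in siCtrl and siRfx1 zygotes alike, so their values restate the 2-cell comparison and do not show that the effect differed between stages.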

How the data were processed

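The deposited files hold transcript coverage and FPKM that the authors made per library with StringTie (1.3.3b in the file headers, 1.3.4 in the submitters' processing notes) after alignment with STAR 2.5.2b to mm9 with RefSeq genes. The authors' read counts were not analysed here, and the library kit does not mark strand. FPKM was summed per gene symbol over 29306 transcripts; 976 transcripts without a symbol (0.610 to 1.48% of FPKM) were left out. Aligned bases were estimated from coverage and length. Each of 13 comparisons was scaled on its own, by median ratios of genes reaching 1 FPKM in every library it used. Genes averaging 1 rescaled FPKM or more were fitted as log2(FPKM + 1) with limma 3.58.1 (trend; R 4.3.3), and p-values were adjusted by Benjamini-Hochberg over all genes tested. Calls needed an adjusted p below 0.05 together with a difference of more than 2-fold. The fit was tried on values simulated from the siCtrl zygotes, with few genes changed and none of those near 0. This trial cannot show how the method behaves for genes near 0 or where many genes change. Tables and figures used Python 3.11.15, numpy 2.4.6, scipy 1.17.1, pandas 2.3.3 and matplotlib 3.10.9.

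The members, the 120 other pathway genes, the markers (12 oocyte and zygote, 12 2-cell embryo, 12 cumulus and granulosa, 10 sperm) and the tests were chosen with earlier results of these data known. Members were named by rule: the 10 called members with the largest rise and up to 5 with the largest fall in siCtrl, the paralogs Nop56 and Nop58, Gnl2 and Gnl3, Rrp1 and Rrp1b, up to 3 called members each way in other comparisons or else the 2 of lowest p, and up to 2 other pathway genes per role each way. Other members are named as examples of their role. Sperm markers summed to 21.9 to 34.8 FPKM in siCtrl zygotes and to 2.83 to 7.20 FPKM in siCtrl 2-cell embryos. The alternatives used FPKM as deposited, a filter at 5 FPKM or none, a pseudocount of 0.1 and a length trend removed (lowess span 0.5). Others used a replicate block, a single fit over all groups and leaving out each library. A last one, chosen after seeing the data, left out the exon of most coverage in transcripts with more than 2 exons.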

Additional observations from a re-analysis of the deposited data

Results flagged for a closer look

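For 5 members a difference of the KD effect between the stages was called, by limma's test of the difference itself (2-cell effect minus zygote effect, on the log2(FPKM + 1) scale). Rrs1 under siEtv5 gave -2.21: it was above all controls in the 3 zygote libraries and below all controls in the 2 2-cell libraries. Under siRfx1, Gnl3 gave 1.99 and Ncl 1.58, both far above the controls at the 2-cell stage. Rrp9 gave -3.20 and Fbl -3.11 under siRfx1; both genes were at or near 0 in siCtrl and siRfx1 zygotes alike, so these values restate the 2-cell comparison, do not show a difference between stages and depend on the added pseudocount. The siRfx1 2-cell libraries had the fewest aligned bases (119 to 174 Mb), whose part in these differences was not tested.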

How the results depend on the processing

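The count of called members in siCtrl from zygote to 2-cell embryos was 32 and ran from 28 to 34 over the other settings and from 31 to 32 with a library left out. In siMlx it ran from 27 to 32, and in siRfx1 from 20 to 32. In siEtv5 it was 33, and 18 to 35 with a library left out (18 without 2-cell library 1). For siMlx against siCtrl 0 members became 1 in zygotes with FPKM as deposited, where all genes gave 71 higher and 612 lower. In 2-cell embryos they became 0 to 1 with a library left out (1 without siMlx library 3). For siRfx1 in 2-cell embryos the 3 calls became 6 with FPKM as deposited (all genes, 148 higher and 1183 lower). They became 11 without the exon of most coverage (190 and 839). When the 4 groups of the stage were fitted together there were 7 calls (547 and 683). With a library left out there were 0 to 7. There were 0 without siCtrl library 1, 2 or 3, where at most 5 genes were called over the whole table. The stage difference of the siEtv5 effect went from 1 call, Rrs1, to 0 with the length trend removed. It also had 0 calls without the exon of most coverage, although Rrs1 has 1 exon and kept it. The count also changed with a library left out. The stage difference of the siRfx1 effect went from 4 calls to 11 without that exon, where all genes gave 224 higher and 1121 lower of 8039. With a library left out it gave 3 to 12 calls (9, 12 and 7 without siRfx1 2-cell library 1, 2 and 3). Over all genes these 3 fits called 658, 688 and 644 higher and 1279, 1565 and 1611 lower, against 326 and 748 with all libraries. Values that changed sign were Rrp1b in siRfx1 zygotes (-0.070), Ebna1bp2 in siMlx 2-cell embryos (-0.15) and Utp18 between stages in siEtv5 (0.47), all without the exon of most coverage, and Rrp1b between stages in siCtrl (0.24 as deposited, 0.85 without that exon, -0.10 to 0.12 with a library left out). The cause was not tested. Fbl in siRfx1 2-cell embryos was not called without a filter (adjusted p = 0.0627 in limma) or with the length trend removed (0.0644), nor was Ncl with the latter (0.064).

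Same-numbered libraries of different groups did not deviate together: of 28 pairs 3 had a correlation over 0.1 (range -0.127 to 0.273), so the numbers were not taken to pair them. With the replicate number as a block, the siRfx1 2-cell calls went from 3 to 1 and the siEtv5 stage difference from 1 to 0; the count changed in 6 of 13 comparisons.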
